A study of Mus musculus with 10 samples.

Results

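Interferon-stimulated genes are the genes that cells switch on when an interferon binds its receptor, and most of them encode proteins that block viruses or bacteria inside the cell. The genes described here are a list of 40, chosen by name, out of 55291 in the expression table of submandibular glands. Ligated glands came from mice whose right gland had its duct closed with sutures at both ends, which stops saliva from leaving, and were taken on day 7 (n = 5). Sham glands came from mice in which the skin was cut and the gland freed but the duct not tied, also taken on day 7 (n = 5). All 10 mice were C57BL/6J, 8 weeks old and labelled female, and the labels name no transgene or deletion in either group. The question was how expression of these genes differs in the gland after obstruction.

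Interferons alpha and beta, the type I interferons, bind the receptor IFNAR, and the kinases JAK1 and TYK2 then activate a complex that includes STAT2 and IRF9. It binds a DNA element called the interferon-stimulated response element (ISRE). Interferon gamma, made mainly by T cells and natural killer cells, binds a separate receptor, IFNGR, and acts through a DNA element called the gamma-activated site (GAS) and through the factor IRF1. The Ifit, Oas and Mx families (11 of the 40) are known above all as targets of type I interferons. The guanylate-binding proteins, the immunity-related GTPases Irgm1, Irgm2 and Igtp (also called Irgm3) and Irf1 (10 of the 40) are known above all as targets of interferon gamma. The classes overlap in practice, since many of these genes answer both kinds of interferon, and the other 19 genes were put in neither class.

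Some libraries stood apart or went against their labels. Summed FPKM (sequenced fragments scaled by gene length and library size) of 8 genes of B cells and lymph node was 217, 265 and 312 in ligated 1, 2 and 3 and 350 in sham 1. It was 4.69 and 4.66 in ligated 4 and 5 and 0.226 to 2.56 in sham 2 to 5. Of these 8 genes 6 were at 0 in at least 1 library, among them Ms4a1, Cd79a, Cd79b, Cr2 and Cxcr5. Ligated 1, 2 and 3 and sham 1 are called the libraries with lymph node transcripts, and results are also given without them. Amy1, an amylase gene of the parotid gland, reached 2682 FPKM in ligated 2, 8365 FPKM in ligated 3, 3855 FPKM in ligated 5 and 3358 FPKM in sham 1, and lay between 4.45 and 28.3 FPKM elsewhere. Those high in Amy1 are called the libraries with parotid transcripts. Of 5 parotid genes listed, Prb1, Prpmp5 and Bpifa2 were highest in the same libraries. Car6 was not, at 1788 to 9106 FPKM in ligated glands and 8728 to 18095 FPKM in sham glands. Of the 3 tested, 0 were called higher and 1, Car6, lower. All 10 libraries held transcripts of 4 Y-linked genes (at least 0.770 FPKM) and at most 0.0267 FPKM of Xist, against the label female. Of 7 genes of submandibular acini and ducts, 5 were called lower and 1 higher in ligated glands, and their sum was 1676 to 9265 FPKM in ligated glands and 6089 to 12687 FPKM in sham glands. All 3 adipocyte genes (sums of 169 to 686 FPKM in ligated glands and 0.251 to 12.9 FPKM in sham glands) and all 3 skeletal muscle genes (19.3 to 496 FPKM in ligated glands and 1.75 to 3.67 FPKM in sham glands) were called higher. The libraries held 12105738 to 17305595 reads assigned to genes, as worked out from the values, and each value of a member rests on 8 to 2660 reads.

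Most of the promoters found for these genes hold letters that match an element that interferon signalling acts on. RefSeq windows on GRCm38.p6, from 250 bases before to 50 bases after a gene's start, were found for 30 of the 40 genes (36 windows). They were searched on both strands for the core of the ISRE (GAAA, any 2 bases, GAAA) and for the GAS (TTCNNNGAA). An ISRE match lay in 20 of the 36 windows (55.6%), against 3.44% of all 32851 promoter windows. A GAS match lay in 10 of 36 (27.8%), against 8.3% of all windows. The 2 kinds of match overlapped in 1 window, that of Bst2. By gene, 6 of 30 had both elements and 7 had neither. Of the 8 type I genes with a window, 5 had an ISRE match and 2 a GAS match. Of the 8 gamma genes with a window, 7 had an ISRE match and 5 a GAS match, and each had at least 1 of them. A match is a description of the letters and not a measured binding site.

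The 200 bases before the start are printed for 6 genes, 5′ to 3′ on the strand of the gene, with ISRE and GAS matches in capitals. Ifit3 (chr19:34583329-34583528, plus strand) is the type I gene and Gbp2 (chr3:142620463-142620662, plus strand) the gamma gene with the largest change. Irf7 (chr7:141266425-141266624, minus strand) is the transcription factor gene of the list that was called higher. Isg15 (chr4:156200819-156201018, minus strand), Igtp (chr11:58199356-58199555, plus strand) and Irf1 (chr11:53769814-53770013, plus strand) were added after the values were seen, to show 3 overlapping ISRE matches, a GAS match beside an ISRE match, and a GAS match alone.
Ifit3: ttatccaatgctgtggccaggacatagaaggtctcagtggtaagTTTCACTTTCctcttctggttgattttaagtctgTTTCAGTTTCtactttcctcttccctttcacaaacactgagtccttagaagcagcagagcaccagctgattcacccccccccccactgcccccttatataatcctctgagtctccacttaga
Gbp2: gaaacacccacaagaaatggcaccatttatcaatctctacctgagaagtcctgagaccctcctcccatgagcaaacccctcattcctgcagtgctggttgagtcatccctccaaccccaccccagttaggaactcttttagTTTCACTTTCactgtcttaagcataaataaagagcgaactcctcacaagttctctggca
Igtp: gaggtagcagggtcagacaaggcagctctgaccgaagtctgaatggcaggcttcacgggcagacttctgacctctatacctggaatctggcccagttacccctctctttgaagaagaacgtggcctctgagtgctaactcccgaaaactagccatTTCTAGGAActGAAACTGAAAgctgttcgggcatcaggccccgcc
Irf1: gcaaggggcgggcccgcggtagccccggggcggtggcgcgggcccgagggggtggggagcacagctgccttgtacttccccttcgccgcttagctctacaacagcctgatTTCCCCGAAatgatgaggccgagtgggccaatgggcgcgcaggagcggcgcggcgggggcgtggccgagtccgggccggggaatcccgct
Isg15: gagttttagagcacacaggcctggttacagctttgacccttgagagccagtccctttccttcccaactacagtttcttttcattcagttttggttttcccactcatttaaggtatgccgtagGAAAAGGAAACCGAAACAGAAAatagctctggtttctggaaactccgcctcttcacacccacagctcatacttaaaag
Irf7: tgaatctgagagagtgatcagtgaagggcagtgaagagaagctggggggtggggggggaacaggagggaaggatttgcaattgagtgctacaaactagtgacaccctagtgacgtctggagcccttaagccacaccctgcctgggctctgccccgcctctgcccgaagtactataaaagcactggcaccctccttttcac
In capitals, Ifit3 shows 2 separate ISRE matches read on the opposite strand, and Gbp2 shows 1. Irf7 shows none in this window, which says only that these letters are not in it. The start is that of RefSeq: for Gbp2 and Irf7 it lies inside the gene as GENCODE M21 places it, so the last bases printed for these 2 are transcribed in that annotation.

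After duct ligation the interferon-stimulated genes were higher as a group of named genes, and none was lower. A gene was called when limma's Benjamini-Hochberg adjusted p was under 0.05 and the log2 fold change, on the log2(FPKM + 1) scale used throughout, was at least 1 in size. Of the 40 genes, 38 reached the filter of 1 FPKM in at least 5 libraries and were tested, and 25 were called higher, where 17.1% of all 11856 genes tested were. None was called lower (1.16% of all genes), 0 had a negative fold change, and limma voom on reads recovered from the values also called 0 lower. Mx2 and Gbp6 were too low to be tested, and Ifi44 was the single tested gene below 1 FPKM in all 5 sham libraries, so it could pass only through its ligated values. Oas3, Mx1, Gbp4 and Gbp5 reached 1 FPKM in sham 1 but in no other sham library, so they passed mainly through ligated values. Ifit2, Oas2, Xaf1, Zbp1, Gbp3 and Gbp7 had some sham values below 1 FPKM and also needed ligated libraries to pass. With no filter on low values, 25 of 40 were called higher (7.68% of 26754 genes). By the adjusted p alone, whatever the fold, 35 of 38 were higher (56.8% of all genes) and 0 lower (3.35%). The size of the change set the call for 10 of these.

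The interferon-stimulated genes lay above the median of the genes tested, which was itself above 0. Their median log2 fold change was 1.20, and that of all genes tested was 0.53, a gap of 0.67. With no filter on low values the median of 26754 genes was 0.18. All 38 lay above the median of all genes. Scaling each library by its median ratio moved the median of all genes to -0.02 and that of these genes to 0.70, a gap of 0.71. After that scaling 6 were called higher (6.87% of all genes), namely Ifit2, Ifit3, Trim30a, Isg15, Irf7 and Gbp2, and none lower (4.3%). After quantile normalization 6 were called higher (5.81%) and none lower (4.29%). Rescaling the libraries to the same sum gave 39 of 40 higher (53.4%) and none lower (0.586%), and voom gave 31 of 38 higher (27.0%). All 38 fold changes stayed above 0 under the median-ratio, quantile and same-sum scalings, and the other 19 called genes were not called after median-ratio scaling.

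**Figure D1:**
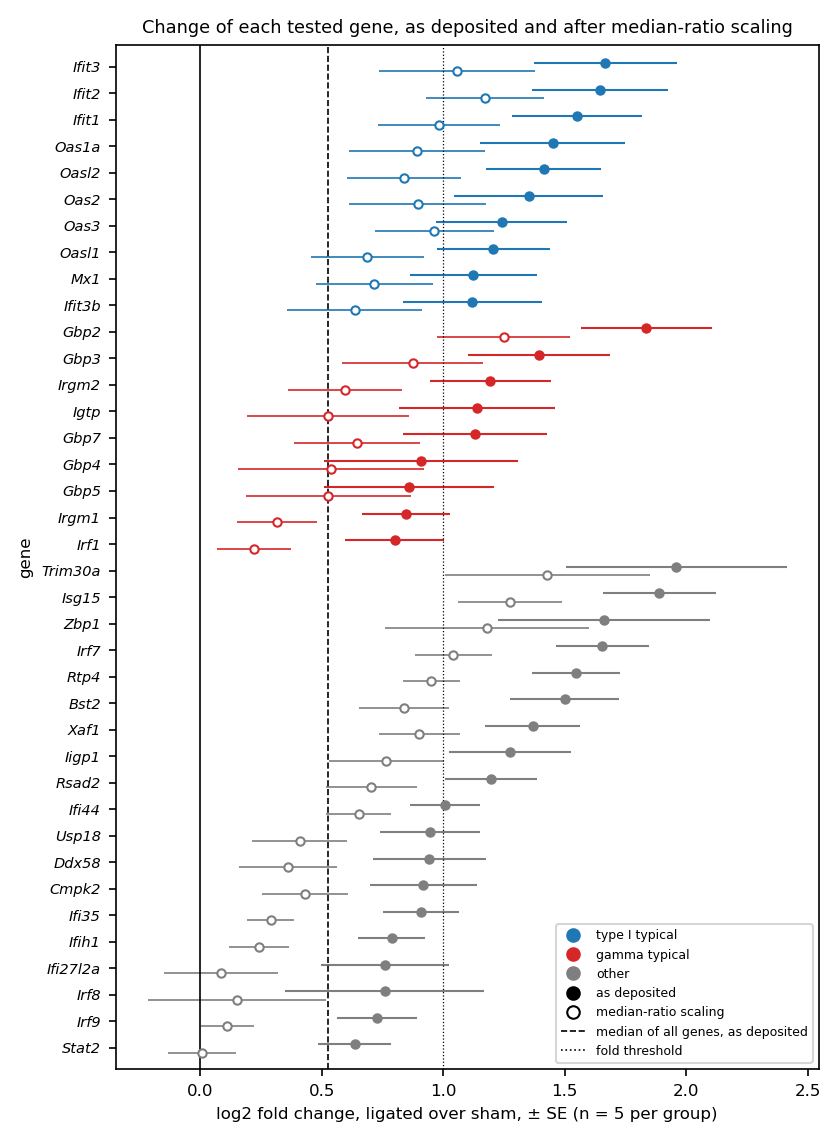
Log2 fold change of each tested interferon-stimulated gene, ligated over sham, on the log2(FPKM + 1) scale with its standard error, with values as deposited and after median-ratio scaling. All 38 points as deposited lie to the right of the median of all genes, 0.53, and 25 are called higher.

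Most listed markers of macrophages, endothelium and neutrophils were called higher in ligated glands, where 17.1% of all genes tested were. Of 8 macrophage and monocyte genes, 7 were called higher. The sum of all 8 was 286 to 460 FPKM in ligated glands and 57.4 to 113 FPKM in sham glands, and none was at 0 in any library. The exception, Ly6c2, had 23.6, 27.8, 31.5, 2.11 and 2.45 FPKM in ligated 1 to 5. It had 24.4 FPKM in sham 1 and 0.613 to 2.68 FPKM in sham 2 to 5 (limma, Benjamini-Hochberg adjusted p = 0.114). All 3 endothelial genes were called higher, with sums of 41.6 to 65.5 FPKM in ligated glands and 9.67 to 31.9 FPKM in sham glands, and none was at 0. All 4 neutrophil genes were called higher, with sums of 21.2 to 144 FPKM in ligated glands and 0.411 to 32.1 FPKM in sham glands, and S100a8, S100a9 and Retnlg were each at 0 in at least 1 library. The part of these cells in the change of interferon-stimulated genes was not tested. In whole gland RNA, more cells of a type and more RNA per cell cannot be told apart.

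The genes of the IFIT proteins, which bind viral RNA that lacks the host's cap and block its translation, rose in all 4 cases. They lie side by side on chromosome 19, on the plus strand of GRCm38, from the start of Ifit2 at 34550694 to the end of Ifit1 at 34650009. Ifit3, at 34583531 to 34588731, had the largest change and the highest level of the family, with 12.8, 33.3, 11.9, 15.4 and 20.3 FPKM in ligated 1 to 5, against 3.23, 3.82, 6.56, 3.88 and 7.79 FPKM in sham 1 to 5. The groups did not overlap, and ligated 2 was far above the other ligated glands. Ifit3 averaged 18.7 ± 8.77 FPKM in ligated glands and 5.06 ± 2.00 FPKM in sham glands (SD, n = 5 each), a log2 fold change of 1.67 ± 0.29 (SE; limma, Benjamini-Hochberg adjusted p = 0.00135). Ifit2 changed by 1.65, Ifit1 by 1.55 and Ifit3b by 1.12 on the log2 scale, and none of them overlapped between the groups. Ifit1 ranged from 7.15 to 19.99 FPKM in ligated glands and from 1.80 to 4.77 FPKM in sham glands, Ifit2 from 4.17 to 13.3 FPKM in ligated glands and from 0.795 to 2.54 FPKM in sham glands, and Ifit3b from 2.06 to 8.59 FPKM in ligated glands and from 1.04 to 1.94 FPKM in sham glands. Ifit3 and Ifit3b have nearly the same sequence, which makes their separate values uncertain, and Ifit3b was not called without ligated 2 (0.90).

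The genes of the OAS enzymes, which sense double-stranded RNA and make the messenger that turns on the nuclease RNase L, rose in all 5 cases, by 1.21 to 1.45 on the log2 scale. Oasl1 and Oasl2 belong to the family by sequence. Oas1a had the largest change, with 5.85, 16.7, 8.55, 7.74 and 12.5 FPKM in ligated 1 to 5, against 5.45, 2.53, 2.97, 1.40 and 3.10 FPKM in sham 1 to 5. Sham 1 came close to ligated 1 but did not reach it. Its means were 10.3 ± 4.33 FPKM in ligated glands and 3.09 ± 1.48 FPKM in sham glands (log2 fold change 1.45 ± 0.30; limma, Benjamini-Hochberg adjusted p = 0.00292). Reads of Oas1a may be shared with its near copies Oas1b, Oas1c and Oas1g.

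Oasl2 was the OAS gene with the highest level. It had 5.66, 16.2, 7.45, 11.2 and 12.9 FPKM in ligated 1 to 5, against 2.79, 3.18, 3.44, 3.68 and 2.75 FPKM in sham 1 to 5. All ligated glands lay above all sham glands, and sham 1 did not stand out (log2 fold change 1.41 ± 0.24; limma, Benjamini-Hochberg adjusted p = 0.00104). Oas3 was the lowest of the family, with 1.15 to 4.89 FPKM in ligated glands and 0.0905 to 1.03 FPKM in sham glands. The lowest read number behind any member, 8 reads, was that of Oas3 in a sham gland. Oas2 ranged from 3.00 to 11.4 FPKM in ligated glands and from 0.685 to 2.43 FPKM in sham glands, and Oasl1 from 3.93 to 8.90 FPKM in ligated glands and from 1.17 to 2.95 FPKM in sham glands.

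Mx1 and Mx2 encode dynamin-like GTPases that trap viral particles, and both genes are known to be defective in common laboratory strains such as C57BL/6. Their transcripts were low. Mx1 had 2.37, 7.34, 2.09, 2.19 and 2.77 FPKM in ligated 1 to 5, against 1.27, 0.653, 0.947, 0.960 and 0.486 FPKM in sham 1 to 5. The groups did not overlap, and ligated 2 was far above the other ligated glands. Mx1 rose by 1.12 ± 0.26 on the log2 scale (limma, Benjamini-Hochberg adjusted p = 0.00536), a call that ended without ligated 2 (0.86) and when the 4 libraries with lymph node transcripts were left out (0.99). Mx2 was not tested and ranged from 0.681 to 1.76 FPKM in ligated glands and from 0.128 to 0.385 FPKM in sham glands.

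Of 10 other antiviral effectors, 7 were called higher (17.1% of all genes tested) and none lower (1.16%). Trim30a, a ubiquitin ligase of the TRIM family, had the largest change of all 40 genes, with 11.1, 23.7, 15.6, 7.99 and 8.76 FPKM in ligated 1 to 5, against 10.96, 1.40, 1.74, 1.35 and 1.65 FPKM in sham 1 to 5. Sham 1 lay above ligated 4 and 5 and was level with ligated 1, whereas sham 2 to 5 lay far below every ligated gland. The log2 fold change was 1.96 ± 0.46 (limma, Benjamini-Hochberg adjusted p = 0.00522) with all libraries and 1.89 without the 4 with lymph node transcripts.

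Ifi27l2a, which encodes a small hydrophobic protein, had the highest level of the 40 genes and was not called. It had 201, 267, 429, 211 and 363 FPKM in ligated 1 to 5, against 266, 163, 133, 142 and 152 FPKM in sham 1 to 5. The groups overlapped through sham 1 alone (log2 fold change 0.76 ± 0.26; limma, Benjamini-Hochberg adjusted p = 0.0285), and after median-ratio scaling the log2 fold change was 0.09. Bst2, or tetherin, which holds budding viruses on the cell surface, was the next highest effector, with 57.9 to 111 FPKM in ligated glands and 22.0 to 44.6 FPKM in sham glands (log2 fold change 1.5). Zbp1, a sensor of Z-form nucleic acid that starts cell death, changed by 1.66, Rtp4, a chaperone of receptors, by 1.55, and Xaf1, a promoter of apoptosis, by 1.37. Rsad2 (viperin), which makes a chain-terminating nucleotide, changed by 1.20 and Ifi44 by 1.01. Cmpk2, a mitochondrial nucleotide kinase and the neighbour of Rsad2 on chromosome 12, had a log2 fold change of 0.92 and Ifi35 of 0.91, and neither was called. Zbp1 ranged from 3.78 to 15.4 FPKM in ligated glands and from 0.702 to 6.57 FPKM in sham glands. Rtp4 ranged from 11.4 to 20.3 FPKM in ligated glands and from 3.53 to 6.06 FPKM in sham glands, Xaf1 from 3.29 to 7.59 FPKM in ligated glands and from 0.896 to 1.57 FPKM in sham glands. Rsad2, at 3.34 to 7.53 FPKM in ligated glands and 1.07 to 1.99 FPKM in sham glands, and Ifi44, at 1.53 to 2.97 FPKM in ligated glands and 0.358 to 0.820 FPKM in sham glands, did not overlap either. Of these 5 genes only Zbp1 overlapped between the groups, through sham 1. Ifi35, at 12.5 to 17.8 FPKM in ligated glands and 5.77 to 10 FPKM in sham glands, was separate, and Cmpk2, at 3.23 to 7.42 FPKM in ligated glands and 1.17 to 3.27 FPKM in sham glands, overlapped narrowly through sham 1. Ifi44 was not called without ligated 2 (0.92), ligated 3 (0.98), sham 3 (0.96) or sham 5 (0.98), nor when the 4 libraries with lymph node transcripts were left out (0.96).

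Isg15 encodes a ubiquitin-like protein that is attached to other proteins during the response, and Usp18 encodes the protease that takes it off and also dampens IFNAR signalling. Isg15 had 27.3, 39.96, 21.4, 15.0 and 24.8 FPKM in ligated 1 to 5, against 7.92, 4.45, 5.67, 6.35 and 5.46 FPKM in sham 1 to 5. The lowest ligated gland was well above the highest sham gland. The means were 25.7 ± 9.21 FPKM in ligated glands and 5.97 ± 1.28 FPKM in sham glands (SD, n = 5 each), a log2 fold change of 1.89 ± 0.23 (limma, Benjamini-Hochberg adjusted p = 0.000233). Isg15, whose promoter holds the 3 overlapping ISRE matches printed above, lies on chromosome 4 at 156199424 to 156200818. Usp18 ranged from 4.5 to 10.8 FPKM in ligated glands and from 2.16 to 2.78 FPKM in sham glands without overlap. Its log2 fold change of 0.94 fell short of the threshold.

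Of 5 transcription factors of the response 1 was called higher, Irf7, a share near the 17.1% of all genes tested. IRF7 drives the transcription of type I interferon genes and is itself induced by them. Irf7 had 16.4, 28.7, 16.2, 18.5 and 24.5 FPKM in ligated 1 to 5, against 8.37, 5.65, 4.96, 5.40 and 5.04 FPKM in sham 1 to 5. The groups did not overlap, although sham 1 was above the other sham glands. The means were 20.9 ± 5.50 FPKM in ligated glands and 5.88 ± 1.42 FPKM in sham glands, and the log2 fold change was 1.65 ± 0.19 (limma, Benjamini-Hochberg adjusted p = 0.00018), 1.83 without the libraries with lymph node transcripts and 1.04 after median-ratio scaling. Irf7 overlaps Phrf1 on the other strand, and no source used here says whether the counting used strand.

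Stat2 and Irf9, which encode parts of the complex that acts on ISREs, were not called. Irf9 had a log2 fold change of 0.73 and Stat2 of 0.64. Neither group pair overlapped: Stat2 ranged from 12.6 to 20.5 FPKM in ligated glands and from 9.20 to 11 FPKM in sham glands, and Irf9 from 12.4 to 15.6 FPKM in ligated glands and from 5.46 to 10.3 FPKM in sham glands. After median-ratio scaling Stat2 stood at 0.01 and Irf9 at 0.11. Irf9 overlaps Rnf31 on the same strand, so the division of reads between them is uncertain. Irf1, the factor linked to interferon gamma, stood at 0.80 as deposited, with 7.21 to 11.3 FPKM in ligated glands and 3.36 to 7.29 FPKM in sham glands. Irf8, which is expressed in B cells and myeloid cells, had 22.6, 19.1, 18.8, 8.15 and 9.33 FPKM in ligated 1 to 5, against 24.2, 6.13, 4.93, 7.87 and 5.80 FPKM in sham 1 to 5. Its 4 highest libraries were the 4 with lymph node transcripts, and it was not called (log2 fold change 0.76; limma, Benjamini-Hochberg adjusted p = 0.124). Irf8 was described in full after its values were seen.

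Both cytoplasmic sensors of viral RNA missed the fold threshold in limma, with an adjusted p under 0.05 for both, and voom called 1 of the 2. Ddx58 (RIG-I) had 7.45, 13.8, 10.4, 7.88 and 9.14 FPKM in ligated 1 to 5, against 8.55, 3.54, 4.40, 3.4 and 3.75 FPKM in sham 1 to 5. Only sham 1 reached into the ligated range (log2 fold change 0.94 ± 0.23; limma, Benjamini-Hochberg adjusted p = 0.0071). Ifih1 (MDA5) ranged from 4.40 to 7.01 FPKM in ligated glands and from 2.73 to 3.41 FPKM in sham glands, with a log2 fold change of 0.79.

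The guanylate-binding proteins, GTPases that attack the vacuoles and membranes of pathogens, differed among themselves. Of 6 genes, 5 were tested, and Gbp2, Gbp3 and Gbp7 were called higher (17.1% of all genes tested). Gbp2 had both the largest change and the highest level, with 16.4, 17.7, 16.1, 12.0 and 20.1 FPKM in ligated 1 to 5, against 8.17, 2.75, 4.73, 2.00 and 3.43 FPKM in sham 1 to 5. The groups did not overlap, and ligated 2 did not stand out. Gbp2 averaged 16.4 ± 2.92 FPKM in ligated glands and 4.22 ± 2.43 FPKM in sham glands, a log2 fold change of 1.84 ± 0.27 (limma, Benjamini-Hochberg adjusted p = 0.000538) that was 2.01 without the libraries with lymph node transcripts. It lies on chromosome 3 at 142620602 to 142638008, on the plus strand. Gbp3 ranged from 4.55 to 9.55 FPKM in ligated glands and from 0.906 to 5.16 FPKM in sham glands, and Gbp7 from 3.74 to 7.64 FPKM in ligated glands and from 0.926 to 4.85 FPKM in sham glands. Both overlapped through sham 1. Gbp3 changed by 1.39 and Gbp7 by 1.13, and Gbp7 was not called without sham 5 (0.99).

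Gbp4, added after its values were seen, shows the other pattern. It had 3.43, 4.87, 3.89, 1.06 and 1.37 FPKM in ligated 1 to 5, against 3.92, 0.550, 0.810, 0.375 and 0.405 FPKM in sham 1 to 5. The 4 libraries with lymph node transcripts were its 4 highest, in either group. Its log2 fold change was 0.91 ± 0.40 (limma, Benjamini-Hochberg adjusted p = 0.0678) with all libraries and 0.53 without those 4. Gbp5, at 0.999 to 3.70 FPKM in ligated glands and 0.199 to 2.89 FPKM in sham glands, stood at 0.86 with all libraries and 0.51 without them. Voom on the recovered reads, which adds no 1 FPKM to these low values, called both higher, Gbp4 at 1.66 (adjusted p = 0.0384) and Gbp5 at 1.74 (adjusted p = 0.0315). Gbp4 overlaps Gbp8 and Gbp9 on the same strand, so the division of reads among these is uncertain. Gbp6 was not tested and ranged from 0.526 to 1.07 FPKM in ligated glands and from 0.111 to 0.714 FPKM in sham glands.

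Of the 4 immunity-related GTPases, which disrupt the vacuoles of intracellular parasites, Iigp1, Irgm2 and Igtp were called higher (17.1% of all genes tested). Iigp1 had the largest change, with 7.87, 6.58, 7.22, 4.59 and 5.30 FPKM in ligated 1 to 5, against 4.59, 1.19, 2.07, 1.31 and 1.72 FPKM in sham 1 to 5. Sham 1 equalled the lowest ligated gland to the digits printed (log2 fold change 1.27 ± 0.25; limma, Benjamini-Hochberg adjusted p = 0.00239). Igtp had the highest level, with 17.4, 19.6, 15.5, 12.4 and 15.1 FPKM in ligated 1 to 5, against 15.9, 5.62, 9.0, 3.27 and 4.51 FPKM in sham 1 to 5. Here sham 1 lay within the ligated range, and the call (log2 fold change 1.14 ± 0.32; limma, Benjamini-Hochberg adjusted p = 0.0125) ended without sham 4 (0.93). Irgm2 changed by 1.19, with 10.4 to 19.3 FPKM in ligated glands and 3.48 to 9.68 FPKM in sham glands. Irgm1 was not called at 0.85, with 4.09 to 7.54 FPKM in ligated glands and 1.83 to 3.81 FPKM in sham glands, and neither overlapped. Igtp and Irgm2 overlap on the same strand of chromosome 11, so reads may be divided between them in an unknown way. With the lymph node transcripts as a covariate none of the 4 was called, at log2 fold changes of 0.83 to 0.98, all with an adjusted p under 0.05.

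**Figure D2:**
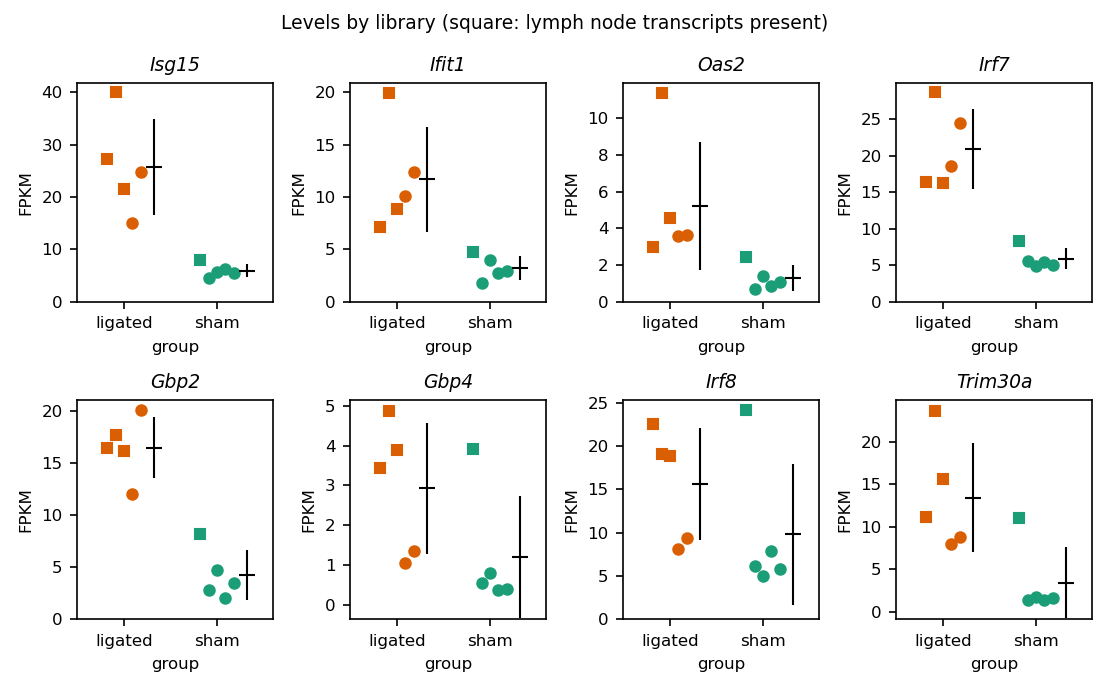
FPKM of selected interferon-stimulated genes in each of the 5 ligated libraries (left) and 5 sham libraries (right), with the mean and SD of each group; squares are the libraries with lymph node transcripts. Isg15 and Irf7 separate the groups, whereas Gbp4 and Irf8 are high in the 4 libraries drawn as squares.

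Over the 40 genes, all ligated libraries lay above all sham libraries for 26, where 30.2% of all genes tested did so. That held for 11 of 11 type I genes, 3 of 10 gamma genes (Gbp2, Irgm1 and Irgm2) and 12 of the 19 others. Sham 1 was the library that closed the gap: against sham 2 to 5 alone, all 40 genes had every ligated library above (52.2% of all genes). Sham 1 was above the lowest ligated library for 0 of 11 type I genes, 7 of 10 gamma genes and 7 of 19 others, and 54.7% of all genes. Sham 1 was the highest sham library for 7 of 11 type I genes and 9 of 10 gamma genes (49.6% of all genes). The ratio of sham 1 to the mean of sham 2 to 5 had a median of 1.66 for type I genes, 2.99 for gamma genes and 1.24 for all genes. Ligated 2 was the highest ligated library for all 11 type I genes and for 7 of 10 gamma genes (26.8% of all genes).

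**Figure D3:**
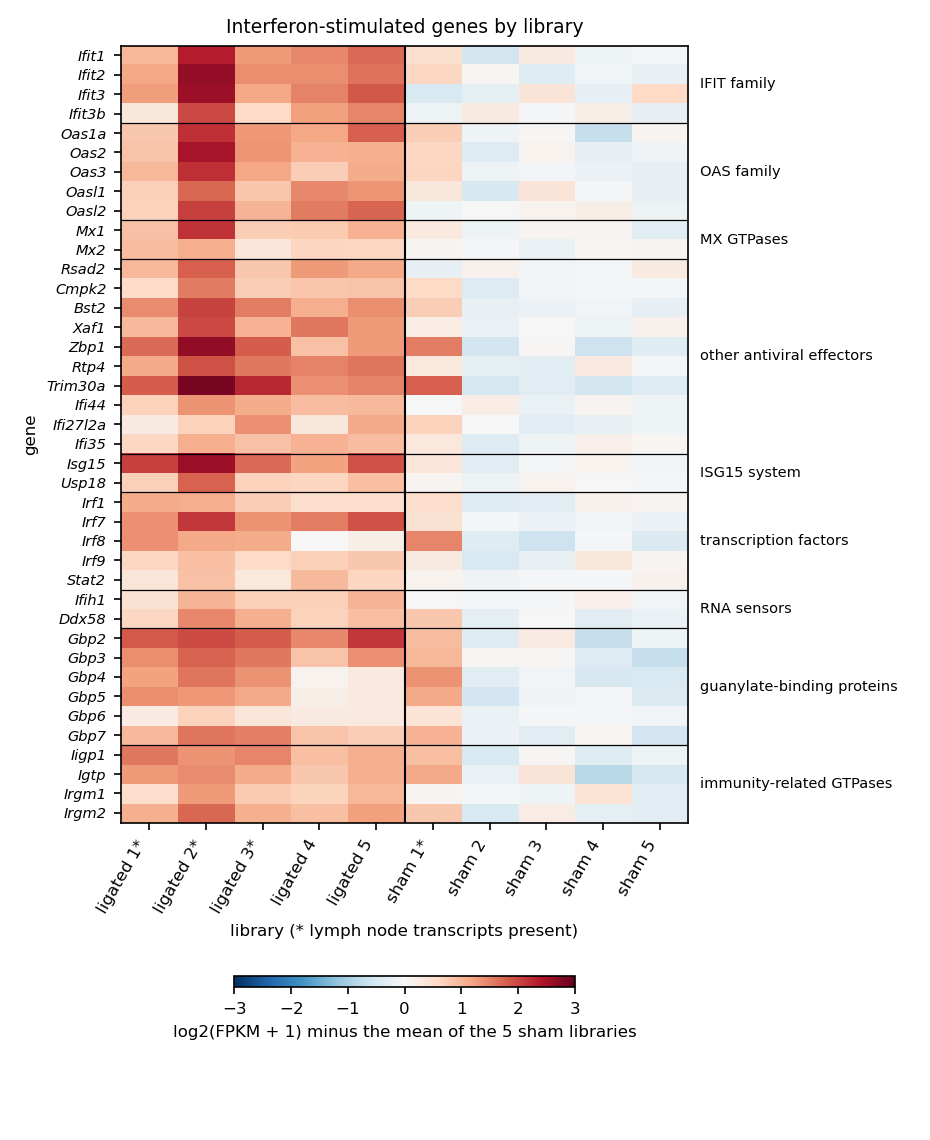
Log2(FPKM + 1) of the 40 interferon-stimulated genes in each library, relative to the mean of the 5 sham libraries, by role, with the libraries with lymph node transcripts starred. Ligated 2 is the highest ligated library for 33 of the 40 genes, and sham 1 is the highest sham library for 29.

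The type I and gamma classes are set side by side here by library. Of the 10 type I genes tested 10 were called higher, with a median log2 fold change of 1.38, and of the 9 gamma genes tested 5 were, with a median of 1.13 (17.1% of all genes were called higher). Voom called 10 of the 10 type I genes and 8 of the 9 gamma genes higher (27.0% of all genes), with medians of 1.81 and 1.58. In ligated 1 to 5 the mean log2(FPKM + 1) over the type I genes was 2.28, 3.53, 2.42, 2.58 and 2.80, against 1.69, 1.24, 1.46, 1.30 and 1.33 in sham 1 to 5. Over the gamma genes it was 2.84, 3.19, 2.89, 2.40 and 2.63 in ligated 1 to 5, against 2.58, 1.47, 1.73, 1.53 and 1.40 in sham 1 to 5. The type I level separated the groups with a wide margin, whereas the gamma level of sham 1 lay between those of ligated 4 and ligated 5. The type I level minus the gamma level was below 0 in ligated 1 and 3 (-0.57 and -0.47) and above 0 in ligated 2, 4 and 5 (0.35, 0.18 and 0.17). In sham glands it was -0.90 in sham 1 and -0.26 to -0.08 in the others.

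The levels were also compared with the libraries split by lymph node transcripts. The libraries called free of them were not alike, since the 8 B cell and lymph node genes summed to 4.69 and 4.66 FPKM in ligated 4 and 5, against 0.226 to 2.56 FPKM in sham 2 to 5. Among these, ligated 4 and 5 lay above all of sham 2 to 5 for 40 of 40 genes (66.7% of all genes). The class level there was higher in ligated than in sham glands by 1.36 for type I genes and by 0.99 for gamma genes. With lymph node transcripts, the mean of ligated 1 to 3 was above sham 1 by 1.06 for type I genes and by 0.39 for gamma genes, and sham 1 is a single library there. Sham 1 itself was above the mean of sham 2 to 5 by 0.35 for type I genes and by 1.05 for gamma genes. The difference between the classes was not tested. Without the 4 libraries 25 of 38 genes were called higher (21.9% of all genes), 9 of type I and 5 gamma. With lymph node transcripts as a covariate 18 were (14.7% of all genes), 8 of type I and 2 gamma. Without the 4 libraries and with median-ratio scaling 6 were called higher (8.62% of all genes) and none lower (5.23%).

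**Figure D4:**
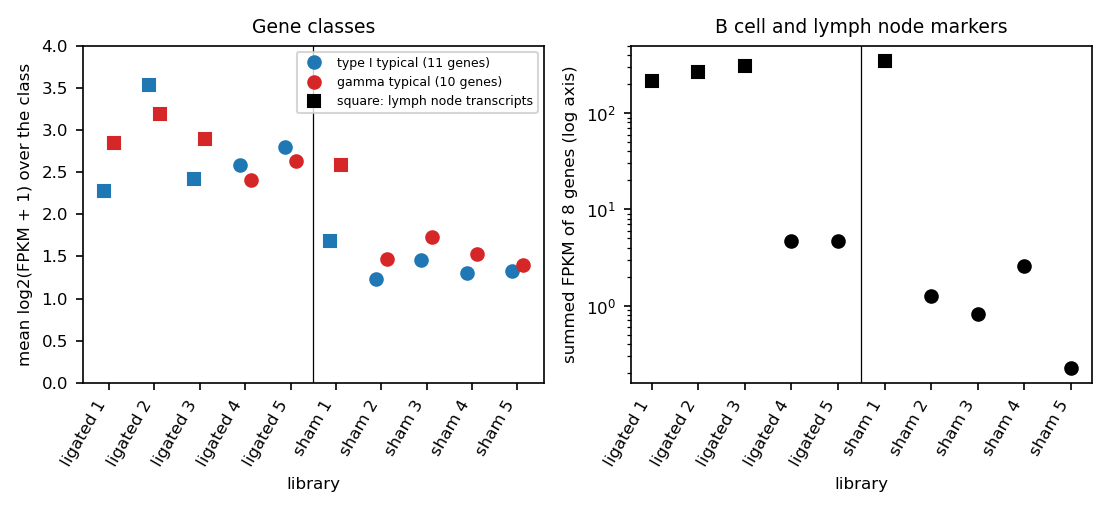
Mean log2(FPKM + 1) of the type I and gamma classes in each library, with ligated libraries left of sham libraries, and, in the right panel, the summed FPKM of 8 B cell and lymph node genes in each library on a log axis. The type I means of all 5 ligated libraries (2.28 to 3.53) lie above those of all 5 sham libraries (1.24 to 1.69), and the gamma mean of sham 1 (2.58) lies within the ligated range.

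Other immune markers moved with the same 4 libraries. The sum of 6 T cell genes was 71.6 to 119 FPKM in the libraries with lymph node transcripts. It was 8.16 and 13.03 FPKM in ligated 4 and 5, against 1.05 to 2.78 FPKM in sham 2 to 5. Of these genes 1 of the 5 tested was called higher, and Cd3d and Cd3e were at 0 in at least 1 library. Plasmacytoid dendritic cells are a main source of type I interferon. The sum of 3 genes listed for them was 10.9 to 17.2 FPKM in those 4 libraries and 0.957 to 5.13 FPKM in the others. None of these 3 was at 0 in any library, and Tlr9, which is 1 of them, is also among the sensors below. Tlr9 was the highest of the 3 in those 4 libraries, at 6.24, 7.72 and 10.8 FPKM in ligated 1 to 3 and 10.5 FPKM in sham 1. Siglech had 4.39, 4.99 and 5.71 FPKM in ligated 1 to 3 and 4.39 FPKM in sham 1. Which cells Tlr9 came from was not tested. The part of T cells and plasmacytoid dendritic cells in the gamma class was not tested. Ligated 4 and 5 held 4.05 and 5.13 FPKM of the plasmacytoid genes, against 0.957 to 1.43 FPKM in sham 2 to 5. Most of this was Tlr9, at 3.03 and 4.32 FPKM in ligated 4 and 5. Siglech had 0.949 and 0.692 FPKM there, against 0.236 to 0.415 FPKM in sham 2 to 5. Ccr9 had 0.0748 and 0.118 FPKM in ligated 4 and 5. Siglech and Ccr9 were too low to be tested. The 6 natural killer cell genes summed to 6.37 to 12.1 FPKM in ligated glands and 1.82 to 9.98 FPKM in sham glands, and Ncr1 was at 0 in at least 1 library.

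Transcripts of the 9 interferon genes listed were at or near the limit of detection. Of 9 ligand genes listed, 8 (Ifna1, Ifna2, Ifna4, Ifnb1, Ifne, Ifnk, Ifnl2 and Ifnl3) had 0 reads in all 10 libraries, which at 3 reads allows levels of up to 0.168 to 0.442 FPKM, counting error only. Ifng, which encodes interferon gamma, had 7 reads in all. These lay in ligated 2 (0.06 FPKM), ligated 5 (0.12 FPKM) and sham 1 (0.24 FPKM), and the other 7 libraries had none. No difference in any of these 9 was detectable at this depth, and interferon genes outside the list were not looked at.

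Of the interferon receptors, 3 of 6 genes were called higher, among 71 other genes of the pathway of which 53 were tested, 31 were called higher (17.1% of all genes) and none lower (1.16%). Limma found 0 of the 53 lower at an unadjusted p under 0.05, and voom called 0 lower. The median log2 fold change of the 53 was 1.18, or 0.66 above that of all genes. Sham 1 was the highest sham library for 44 of the 53 tested (49.6% of all genes), and 33 of 53 were called higher (21.9% of all genes) once the 4 libraries with lymph node transcripts were left out. Both chains of the gamma receptor rose. Ifngr1 averaged 38.2 ± 4.64 FPKM in ligated glands and 11.8 ± 6.14 FPKM in sham glands (log2 fold change 1.72 ± 0.26; limma, Benjamini-Hochberg adjusted p = 0.000557), and Ifngr2 averaged 24.0 ± 5.28 FPKM in ligated glands and 8.65 ± 2.98 FPKM in sham glands (1.39). Ifnar1, a chain of the type I receptor, averaged 17.3 ± 2.68 FPKM in ligated glands and 7.28 ± 2.55 FPKM in sham glands (1.18).

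Of 5 kinases and STATs, Jak2, which serves the gamma receptor, rose by 1.70 and Stat3 by 1.06. Irf5, a factor of myeloid cells, was the 1 called of 3 further IRF genes (1.71), where 17.1% of all genes tested were called higher. Of 9 sensors and adaptors 4 were called higher (17.1% of all genes tested). They were Sting1 (1.70) and Cgas (1.02), which answer DNA in the cytoplasm, and the endosomal receptors Tlr7 (1.47) and Tlr9 (1.37). The adaptors Mavs (0.05) and Ticam1 (-0.11) were not called. Jak2, Irf5, Sting1 and Tlr9 overlapped between the groups through sham 1, whereas Stat3, Cgas and Tlr7 did not overlap.

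Of 5 inhibitors of the pathway 3 were called higher (17.1% of all genes tested). Socs3 changed by 2.38 ± 0.57 (limma, Benjamini-Hochberg adjusted p = 0.00584), Socs1 by 1.54 and the phosphatase gene Ptpn2 by 1.33. Socs3 had 27.6 FPKM in sham 1, within the ligated range of 14.4 to 31.9 FPKM, against 1.96 to 2.71 FPKM in sham 2 to 5. Socs1 had 4.71 FPKM in sham 1, within the ligated range of 2.75 to 6.87 FPKM, against 0.142 to 0.596 FPKM in sham 2 to 5. Ptpn2 did not overlap between the groups. After median-ratio scaling Socs1 and Socs3 were still called and Ptpn2 was not (0.74). Ptpn6 (1.43; limma, Benjamini-Hochberg adjusted p = 0.0537) and Pias1 (0.62) were not called. Of 34 other interferon-induced genes 25 were tested, and 18 were called higher (17.1% of all genes tested). The 4 with the largest changes were Ifi209 (2.00), Ifitm1 (1.83), Mndal (1.83) and Ifi204 (1.79), of which Ifitm1 encodes a membrane protein that blocks viral entry and the others belong to the AIM2-like family, whose members share sequence. Ifi209, Ifitm1 and Mndal overlapped between the groups through sham 1 (17.6, 8.20 and 11.6 FPKM), which lay above ligated 4 and 5 for each. None of them was called after median-ratio scaling. Ifi204 did not overlap and was called after that scaling. Isg20, an exonuclease, was the lowest at a log2 fold change of -0.39 and was not called (9.51 ± 1.68 FPKM in ligated glands and 13.5 ± 5.88 FPKM in sham glands; limma, Benjamini-Hochberg adjusted p = 0.204). After median-ratio scaling 9 of the 52 pathway genes tested were called higher (6.87% of all genes) and 1, Isg20, lower (4.3%).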

How the data were processed

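RNA from right submandibular glands of 10 mice (5 ligated, 5 sham, grouped by the treatment label) was sequenced from SMARTer mRNA libraries, per the labels' protocols. The authors deposited FPKM for 55291 genes in 1 table, with 1 column per library and 0 columns left over. The build named in the submitters' processing notes is GRCm38 (mm10). The aligner, counter and annotation were not given in the sources used here. Sums of FPKM differed between libraries (337121 to 604875), so comparisons of level depend on the scaling, and other scalings were tried. No 2 libraries were identical.

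Depth was recovered from FPKM multiplied by the merged exon length in GENCODE M21 (96.4% of symbols matched): 98.28% to 98.44% of values under 200 reads were whole within 0.01. Whether a unit is a read or a pair is not known. Of the members, 39 of 40 gave whole reads within 0.05 in all libraries. Isg15 did not, and its reads are approximate.

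The 11856 genes that reached 1 FPKM in 5 or more libraries were fitted as log2(FPKM + 1) in limma 3.58.1 (R 4.3.3) with a mean-variance trend, 2 groups and no covariate. Tests were two-sided, adjusted by Benjamini-Hochberg over all genes tested. The pseudocount of 1 understates the change of low genes. P-values measure the spread between libraries of different mice, and no batch is labelled. That spread includes the differences in lymph node and parotid transcripts between libraries. The fit was checked on simulated data.

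The members and gene lists were chosen with earlier results of these data known, and so was the split into type I, gamma and other genes. Values in every library are given, within each role, for the called gene with the largest change and the gene with the highest mean. Of the pathway list, Ifng and up to 4 called genes of each sublist are named. A few items are not reported here. Other genes named were chosen after their values were seen. Promoters are RefSeq windows on GRCm38.p6. The libraries with lymph node transcripts were picked after seeing the data. Alternatives covered pseudocount, filter, scaling, voom on recovered reads, trend, replicate block and left-out libraries.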

Additional observations from a re-analysis of the deposited data

Results flagged for a closer look

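In 21 of 80 groups of 5 libraries (40 genes in each of 2 groups) the highest library stood apart from the other 4 by more than 0.71 of the group's range, where 2615 of 23712 groups of all genes tested had a library that far apart at either end. For normal and independent values chance gives about 1 in 20, and FPKM of related genes are neither. Ligated 2 was that library in 7 cases and sham 1 in 14, of 40 genes each. Over all genes tested, ligated 2 stood apart as the highest for 0.936% and sham 1 for 14.6%.

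Of the ligated cases, 4 were type I genes. Ligated 2 had 13.3 FPKM of Ifit2 against 4.17 to 6.11 in the other ligated glands, 11.4 FPKM of Oas2, 4.89 FPKM of Oas3 and 7.34 FPKM of Mx1. It also had 7.42 FPKM of Cmpk2, 10.8 FPKM of Usp18 and 1.07 FPKM of Gbp6.

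Sham 1 stood apart for 1 type I gene, Oas3 (1.03 FPKM). It stood apart for 4 gamma genes, with 3.92 FPKM of Gbp4, 2.89 FPKM of Gbp5, 0.714 FPKM of Gbp6 and 4.85 FPKM of Gbp7. Among the other genes sham 1 had 24.2 FPKM of Irf8, 11 FPKM of Trim30a, 6.57 FPKM of Zbp1, 44.6 FPKM of Bst2, 266 FPKM of Ifi27l2a, 8.37 FPKM of Irf7, 8.55 FPKM of Ddx58, 3.27 FPKM of Cmpk2 and 4.59 FPKM of Iigp1. Sham 1 held 350 FPKM of B cell and lymph node genes, and their part in these values was not tested.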

How the results depend on the processing

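No member changed direction among those called. Median-ratio scaling left 6 members, 2 type I, 1 gamma and 9 pathway genes called higher, 1 pathway gene lower, and 805 genes higher and 504 lower in the whole table, with medians of 0.70 for members, 0.89 for type I and 0.54 for gamma. Quantile normalization left 6, 2, 1 and 8, with 689 higher and 509 lower in the whole table, and medians of 0.57, 0.76 and 0.51. With all libraries rescaled to the same sum, 39 members, 9 gamma and 51 pathway genes were called higher, with 7381 higher (53.4%) and 81 lower in the whole table, and medians of 1.82, 2.07 and 1.66. Voom on recovered reads called 31 of 38 members (27.0% of genes) and 8 gamma genes higher, with 3165 genes higher in the whole table, and medians of 1.66, 1.81 and 1.58. A filter at 5 FPKM left 14 members, 4 type I genes and 1166 genes of all higher, since fewer genes were tested. A pseudocount of 0.1 gave a members' median of 1.58. Without the libraries with parotid transcripts 79 of all genes were lower. With lymph node transcripts as a covariate 2 gamma genes were called higher. Without the libraries with lymph node transcripts and with median-ratio scaling, 6 members (8.62% of genes), 3 type I, 1 gamma and 11 pathway genes were higher, 1 pathway gene was lower, 1010 genes were higher and 613 lower in the whole table, the medians were 0.62, 0.88 and 0.52, and Irf8, not called, stood at -0.23. The cause of these differences was not tested.

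Leaving out each library in turn gave 22 (without ligated 2) to 30 (without sham 1) members, 8 to 10 type I, 4 to 7 gamma and 26 to 40 pathway genes higher, 0 members and 0 pathway genes lower each time, 1725 to 2732 genes higher and 102 to 202 lower in the whole table. Medians ran from 1.05 to 1.39 for members, 1.17 to 1.54 for type I and 0.96 to 1.39 for gamma genes. Libraries of the same number did not pair (correlations of deviations 0.18, -0.38, -0.08, 0.33 and 0.58, and only numbers 1 and 5 matched their own best). A replicate block kept 25 members higher, with 2082 genes higher and 121 lower in the whole table. Low reads limit Oas3, Mx2, Gbp6 and the interferon ligands.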
